A study of Homo sapiens with 8 samples.

Results

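The genes described here are 8 surface markers by which leukaemia blasts and their progenitors are recognised, KIT, FLT3, CD34, PROM1, CD38, CD33, NCAM1 and CD44, out of 20163 protein-coding genes. A peak of a fusion protein was assigned to one of them if its summit, the base with the strongest signal, lay in the gene body or within 20 kb of it. By this rule the 8 genes held, for AML1-ETO, 64 of the 70833 peaks listed at 12 h and 66 of 105769 at 48 h. For ETO2-GLIS2 they held 13 of 28325 and 14 of 30096. KIT, FLT3, CD34 and CD38 had peaks of both fusion proteins at both times. PROM1, CD33, NCAM1 and CD44 had AML1-ETO peaks at both times and no ETO2-GLIS2 peak at either.

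AML1-ETO joins the DNA-binding Runt domain of RUNX1 to the corepressor ETO, and in ETO2-GLIS2 the related corepressor ETO2 is fused to GLIS2 with its zinc fingers. They are drivers of acute myeloid leukaemia, and blasts with ETO2-GLIS2 are known for high NCAM1 (CD56). KIT and FLT3 are receptor tyrosine kinases that carry growth signals of stem and progenitor cells. CD34 is a sialomucin and PROM1 (CD133) a pentaspan membrane protein of the same early cells. CD38 is an ectoenzyme that uses NAD, CD33 is an inhibitory sialic acid receptor of myeloid cells, NCAM1 is an adhesion molecule of the immunoglobulin family, and CD44 is a receptor for hyaluronan.

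ChIP-seq was used to ask where each fusion protein sits on DNA in the same cells. The cells were U937, a human monocytic line, in which HA-tagged AML1-ETO or ETO2-GLIS2 was switched on by doxycycline (5 µg/ml) over 12 or 48 h, and chromatin was precipitated with anti-HA beads. The series has 8 libraries, 4 ChIP and 4 input, that is 1 ChIP library per condition, so no difference between conditions could be tested, and all comparisons are descriptions of these libraries. Each line was a single clone that expressed the protein from an added gene, and no list from uninduced or empty-vector cells was used here. RNA was not analysed here, so whether these cells carry the markers was not checked.

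The sequences that carry the main contrasts are shown first, as the summit with 50 bp to either side, on the plus strand of hg19. Capitals mark every match, on either strand, to TGTGGT or TGCGGT (Runt), CAGCTG (E-box), GGAA (ETS core), TGACTCA or TGAGTCA (AP-1) and TGGGGGG (GLIS core). The number after each gene is the distance of the summit from the start site in the direction of transcription. The first 5 of the 8 windows lie in regions with a peak of both fusion proteins at 48 h, and the last 3 lie in regions of AML1-ETO alone.
CD34, -12.7 kb, strongest ETO2-GLIS2 peak, chr1:208097094-208097194: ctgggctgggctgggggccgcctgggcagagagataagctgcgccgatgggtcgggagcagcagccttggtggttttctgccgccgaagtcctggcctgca
CD34, 42.0 kb, strongest AML1-ETO peak, chr1:208042468-208042568: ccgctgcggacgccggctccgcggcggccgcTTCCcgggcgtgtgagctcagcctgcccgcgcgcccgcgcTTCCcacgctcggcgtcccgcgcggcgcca
KIT, 0.8 kb, first intron, chr4:55524864-55524964: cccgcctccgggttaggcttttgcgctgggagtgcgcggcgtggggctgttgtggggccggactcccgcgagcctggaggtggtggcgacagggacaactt
FLT3, 68.8 kb, intron 15, chr13:28605816-28605916: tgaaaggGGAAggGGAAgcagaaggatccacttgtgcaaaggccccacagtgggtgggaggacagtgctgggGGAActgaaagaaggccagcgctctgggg
CD38, 0.7 kb, first intron, chr4:15780627-15780727: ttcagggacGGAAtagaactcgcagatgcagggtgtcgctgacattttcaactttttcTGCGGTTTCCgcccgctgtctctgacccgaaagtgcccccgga
KIT, 88.5 kb, downstream, strongest peak of AML1-ETO alone, chr4:55612542-55612642: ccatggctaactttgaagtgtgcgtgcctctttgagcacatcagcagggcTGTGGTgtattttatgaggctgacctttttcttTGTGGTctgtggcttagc
CD38, 54.7 kb, intron 3, AML1-ETO alone, chr4:15834561-15834661: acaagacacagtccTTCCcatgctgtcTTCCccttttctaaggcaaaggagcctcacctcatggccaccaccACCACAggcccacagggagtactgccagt
CD44, 27.0 kb, first intron, AML1-ETO alone, chr11:35187646-35187746: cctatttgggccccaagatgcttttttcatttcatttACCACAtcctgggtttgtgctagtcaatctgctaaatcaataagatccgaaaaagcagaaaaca

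In the lists of AML1-ETO all 8 genes had a peak at each time, where 77.6% of all protein-coding genes had one at 12 h and 80.3% at 48 h. Of the ETO2-GLIS2 lists, 4 of the 8 genes had a peak at 12 h, against 66.4% of all genes, and the same 4 at 48 h, against 66.0%. Both proteins were thus found at 4 of the 8 genes at each time (all genes, 64.2% at 12 h and 65.4% at 48 h), and AML1-ETO without ETO2-GLIS2 at the other 4 (13.4% and 14.9%). ETO2-GLIS2 without AML1-ETO was found at 0 of the 8 (2.17% and 0.625%). A peak in all 4 lists was common, with 59.7% of genes, whereas 7.29% of genes (1469) had AML1-ETO peaks at both times and none of ETO2-GLIS2, the pattern of PROM1, CD33, NCAM1 and CD44. With only the 28325 strongest peaks of each list, NCAM1 had 0 AML1-ETO peaks at 12 h and PROM1 0 at 48 h. Within 1 kb of an own start site, AML1-ETO had a summit at 7 of the 8 genes at each time (all genes, 54.0% at 12 h and 59.8% at 48 h), with PROM1 the gene without one. ETO2-GLIS2 had such a summit at its 4 genes at each time (all genes, 42.8% and 45.7%). CD34 counts here only through the start of another transcript, 20.6 kb inside the gene. With 1 start site per gene, the counts at 48 h were 6 genes for AML1-ETO and 3 for ETO2-GLIS2. No share over all genes is given for that rule.

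**Figure D1:**
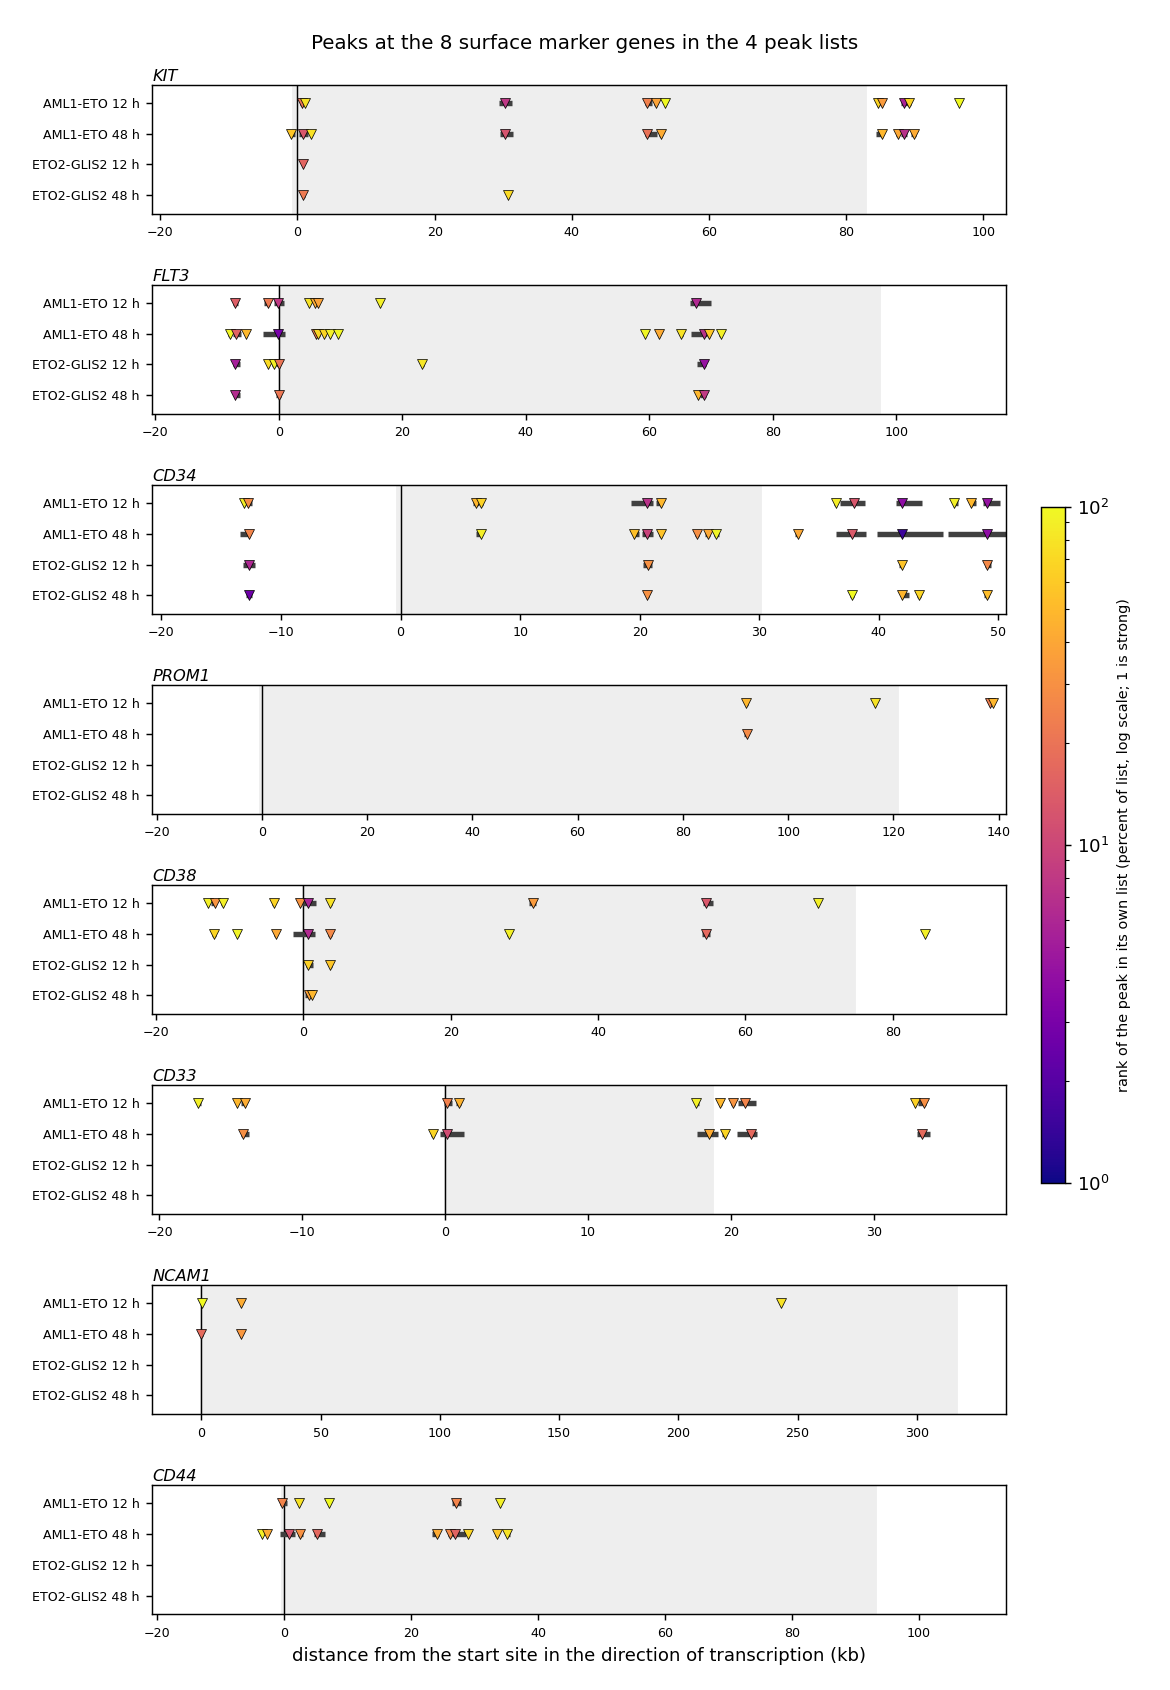
Peaks at each gene in the 4 lists, by distance from the start site in the direction of transcription (kb). Triangles are summits coloured by rank in their own list (percent of the list, log scale), dark bars are the peaks, grey is the gene body and the vertical line the start site. ETO2-GLIS2 rows are empty for PROM1, CD33, NCAM1 and CD44, and its 48 h peaks at the other 4 genes each overlap a 48 h peak of AML1-ETO.

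The gene of the stem cell factor receptor, KIT (chr4:55523434-55606949, plus strand), held 11 peaks of AML1-ETO at 12 h and 10 at 48 h, against 1 and 2 of ETO2-GLIS2. The peak they shared lay in the first intron. At 48 h its summit was 787 bp from the start site for AML1-ETO and 790 bp for ETO2-GLIS2, 3 bp apart. By −log10 q, which the peak caller gives for each peak and by which peaks are ranked here, this region held rank 13612 for AML1-ETO at 48 h (the top 12.9% of its list) and rank 6593 for ETO2-GLIS2 (21.9%). At 12 h AML1-ETO had it at rank 14041 (19.8%) and ETO2-GLIS2 at rank 4534 (16.0%), the latter with a fold enrichment over local background of 14.6, against 11.2 at 48 h. Fold enrichment depends on depth and precipitation, so it describes a peak only within its own list.

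Farther into the gene and beyond it, most peaks of KIT were of AML1-ETO alone, as were most peaks of the AML1-ETO lists. At KIT as a whole, 1 of 11 AML1-ETO peaks at 12 h and 2 of 10 at 48 h overlapped ETO2-GLIS2. Of the whole AML1-ETO lists, 26.2% and 17.8% did. With the same number of strongest peaks from each list, KIT held 6 and 4 of AML1-ETO, against 1 and 2 of ETO2-GLIS2. A first-intron peak 30 kb from the start reached rank 5563 (7.85%) at 12 h and 12966 (12.3%) at 48 h for AML1-ETO. ETO2-GLIS2 had a peak in that region at 48 h alone, at rank 21677 (72.0%), with a summit 500 bp from that of AML1-ETO. Another AML1-ETO region, in intron 6, 51.0 kb from the start, stood at rank 17197 (24.3%) and then 20714 (19.6%). The strongest KIT peak in both AML1-ETO lists lay 88.5 kb from the start, beyond the end of the gene, at rank 3945 (5.57%) at 12 h and 7524 (7.11%) at 48 h, with summits 5 bp apart. It had no ETO2-GLIS2 peak at either time. The other 7 peaks of AML1-ETO at 12 h and 6 at 48 h, from 0.9 kb upstream to 96.4 kb downstream of the start, were weaker, at 34.4 to 98.3% of their lists. The window at 88.5 kb, printed above, holds TGTGGT at 2 places and, taken 100 bp to either side, 1 E-box and no ETS core.

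FLT3 (chr13:28577411-28674729, minus strand), the receptor for FLT3 ligand, had 8 and 15 AML1-ETO peaks and 6 and 4 ETO2-GLIS2 peaks at 12 and 48 h. Both proteins were at the start site. AML1-ETO had its summit 171 bp upstream at 48 h, in a peak 3568 bp wide at rank 3126 (2.96%), after rank 5720 (8.08%) at 12 h in a peak of 1615 bp. The 48 h peak also spans the place of a separate 12 h peak 1.8 kb upstream, so the widths are not those of the same stretch. ETO2-GLIS2 had narrower peaks there, of 687 and 812 bp, with summits 21 and 22 bp inside the gene and ranks of 5737 (20.3%) and 6332 (21.0%). The start site was thus among the strongest AML1-ETO peaks of the 8 genes and a middling one of ETO2-GLIS2.

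Intron 15 of FLT3 held a second strong shared region, 68.8 kb from the start. ETO2-GLIS2 ranked it 1218 (4.30%) at 12 h, its best rank at any of the 8 genes at that time, and 2464 (8.19%) at 48 h. AML1-ETO had it at rank 7648 (7.23%) at 48 h, with a summit 17 bp from that of ETO2-GLIS2. At 12 h the AML1-ETO peak was 3400 bp wide and its summit lay 1195 bp away, at rank 4410 (6.23%). The region is closer to the start site of URAD, the next gene downstream, than to that of FLT3. Its window, printed above, holds GGAA at 3 places and no Runt, E-box, AP-1 or GLIS letters.

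The region 7.0 kb upstream of FLT3 was also shared, where ETO2-GLIS2 had ranks of 1505 (5.31%) and 1977 (6.57%), and AML1-ETO of 10230 (14.4%) and 16482 (15.6%). In all 4 lists its summit lay inside CHCHD2P8, a processed pseudogene (chr13:28681568-28682014). Reads of such a copy can come from related copies elsewhere, so the place of this signal is uncertain and its sequence is not shown. Within the first intron of FLT3, AML1-ETO had 4 peaks between 4.8 and 16.3 kb at 12 h and 5 between 6.0 and 9.6 kb at 48 h, of which 1, at 6.0 kb, reached the top 25% of its list (21.7%). AML1-ETO also had a peak 1.8 kb upstream at 12 h (21.9%) and 7 more at 48 h, upstream and between 59.3 and 71.6 kb, at 42.0 to 98.1% of the list. ETO2-GLIS2 had 2 more upstream at 12 h (71.7 and 90.1%) and 1 at 67.9 kb at 48 h (48.2%). A weak peak of ETO2-GLIS2 at 12 h, 23.2 kb from the start (rank 22872, 80.7%), was the only ETO2-GLIS2 peak of the 8 genes that no AML1-ETO peak of the same time overlapped.

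CD34 (chr1:208054317-208084747, minus strand) had 12 peaks of AML1-ETO at each time and 4 and 6 of ETO2-GLIS2. Per 100 kb of window this came to 17.0 AML1-ETO peaks at each time, where CD33 had 18.7 and 11.9 and the median of all protein-coding genes was 3.76 and 5.75. Neither protein had a summit at its canonical start site. Inside the gene, a shared region lay in intron 4, 20.6 kb from that start, where another annotated transcript of CD34 begins. AML1-ETO ranked it 5046 (7.12%) and 9911 (9.37%), and ETO2-GLIS2 8645 (30.5%) and 9164 (30.4%). At 48 h the summits were 22 bp apart.

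The strongest peaks of the 2 proteins at CD34 fell at opposite ends of the locus. ETO2-GLIS2 had its best peak of the 8 genes at 48 h 12.7 kb upstream of the start, at rank 785 (2.61%), after rank 1739 (6.14%) at 12 h. AML1-ETO had a peak there too, with a summit 37 bp away at 48 h, but at ranks 20500 (28.9%) and 27110 (25.6%). Within its own list the same site was thus far stronger for ETO2-GLIS2. The window printed above holds no match to any of the letters searched, and 100 bp to either side of the summit hold GGAA at 3 places.

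At the other end, 41.9 to 42.0 kb from the start and downstream of the gene, AML1-ETO had its best peak of the 8 genes, at rank 2770 (3.91%) at 12 h and 1587 (1.5%) at 48 h. It widened from 2142 to 5524 bp, the widest peak of the 8 genes. ETO2-GLIS2 was weaker there, at ranks 15726 (55.5%) and 14152 (47.0%) and widths of 264 and 646 bp. The summits lay between 3 and 40 bp from the canonical start site of MIR29B2CHG, the long noncoding host gene of miR-29 family microRNAs (chr1:207933995-208052460, minus strand). The peaks downstream of CD34 that fell inside this noncoding gene numbered 6 and 4 in the AML1-ETO lists, and 2 and 4 in those of ETO2-GLIS2, so which of the 2 genes they concern cannot be told apart. The shown window is rich in G and C (83.2%) and holds 2 ETS cores.

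A further shared region lay 49.1 kb from the start of CD34, where AML1-ETO had ranks of 2988 (4.22%) and 4098 (3.87%), and ETO2-GLIS2 of 7609 (26.9%) and 15656 (52.0%). Within 100 bp of the AML1-ETO summit at 48 h it had 3 Runt matches and 1 E-box. A weaker one, 37.8 kb from the start, was at 12.8 and 13.5% of the AML1-ETO lists and, at 48 h alone, at 98.4% of that of ETO2-GLIS2. Between 24.8 and 26.4 kb, AML1-ETO had 3 peaks in the last exon of CD34 at 48 h, at 29.3, 40.5 and 96.3% of the list, and none there at 12 h. The remaining peaks of the locus, 7 and 4 of AML1-ETO and 1 of ETO2-GLIS2 at 48 h, lay at 40.3 to 90.1% of their lists.

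PROM1 (chr4:15964699-16086001, minus strand) had 4 peaks of AML1-ETO at 12 h and 1 at 48 h, and was the gene with the least AML1-ETO at its start, where no summit was found. A peak in intron 17, 92 kb from the start, was in both lists, at rank 34326 (48.5%) at 12 h and 29128 (27.5%) at 48 h. The other 3 peaks at 12 h lay 116.6, 138.3 and 139.0 kb from the start, at 78.0, 23 and 48.5% of the list. All 4, the one in intron 17 included, were closer to the start sites of FGFBP2 or FGFBP1, neighbours that encode fibroblast growth factor binding proteins, than to that of PROM1.

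At CD38 (chr4:15779898-15854855, plus strand), AML1-ETO had 10 peaks at 12 h and 8 at 48 h, and ETO2-GLIS2 had 2 at each time. The first intron carried the main one of AML1-ETO, 638 and 644 bp from the start, at rank 4059 (5.73%) and 6711 (6.34%). ETO2-GLIS2 was present at the same place but low in its lists, at rank 18171 (64.2%) at 12 h and 11154 (37.1%) at 48 h, with summits 3 and 82 bp from those of AML1-ETO. A second first-intron region, 3.6 kb from the start, held a peak of AML1-ETO at both times (78.0% and 27.2%) and of ETO2-GLIS2 at 12 h alone (56.3%).

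Intron 3 of CD38 held an AML1-ETO region with no ETO2-GLIS2 peak, 54.7 kb from the start, at rank 9211 (13%) and 18125 (17.1%) with summits 10 bp apart. Within 100 bp of either summit are 3 Runt matches, 1 of which falls in the window shown above. The other CD38 peaks, upstream, in the introns and downstream, lay between 31.6 and 94.5% of their lists. The one downstream, at 84.4 kb, was closer to the start site of FGFBP1.

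CD33 (chr19:51728320-51747115, plus strand) had 11 AML1-ETO peaks at 12 h, 7 at 48 h and none of ETO2-GLIS2. The strongest lay at the start site, 130 and 124 bp into the gene, with summits 6 bp apart. It went from rank 17197 (24.3%) and 553 bp at 12 h to rank 11597 (11%) and 1674 bp at 48 h. The 48 h peak also spans the place of a separate 12 h peak 951 bp into the gene. Of the others, 6 at 12 h and 4 at 48 h were closer to the start site of SIGLECL1, the next gene downstream, than to that of CD33. Among these were the regions near 21 kb, at 25.2% and then 17.1% of the list, and near 33.4 kb, at 29.3% and 17.7%. A further region upstream, about 14 kb from the start, was in both lists, at 42.5% and 29.0%. The remaining 7 peaks at 12 h and 3 at 48 h lay at 31.6 to 90.1% of their lists.

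NCAM1 (chr11:112831997-113149158, plus strand), the longest of the 8 genes at 317.2 kb, had 3 peaks of AML1-ETO at 12 h and 2 at 48 h, and none of ETO2-GLIS2. At its start site the AML1-ETO peak was among the last of the list at 12 h, at rank 69656 (98.3%), and stood at rank 18725 (17.7%) at 48 h, with summits 386 bp apart. A noncoding gene without a symbol overlaps this start site. The other region in both lists, 16.4 to 16.5 kb from the start, was at 42.5% and 32.3%. A single exon peak 243.1 kb from the start was in the 12 h list alone, at 78.0%, and lay closer to the start site of TTC12.

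The hyaluronan receptor gene CD44 (chr11:35160429-35253949, plus strand) had 5 peaks of AML1-ETO at 12 h and 11 at 48 h, and none of ETO2-GLIS2. At 12 h 2 of them tied at rank 17950 (25.3%), at the start site and 27.1 kb into the first intron. At 48 h the start region held a peak of 2399 bp at rank 13322 (12.6%), with the summit 823 bp inside the gene, and the intron region one of 2153 bp at rank 16802 (15.9%). Another, 5.1 kb from the start, was at rank 17518 (16.6%) at 48 h and had no counterpart at 12 h. The remaining 3 peaks at 12 h lay at 78.0 to 98.3% of the list and the remaining 8 at 48 h at 27.5 to 90.0%. The 12 h summit at the start lay inside CD44-DT, a noncoding gene that runs the other way. In the window 27.0 kb from the start, shown above, 1 Runt match is found.

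**Figure D2:**
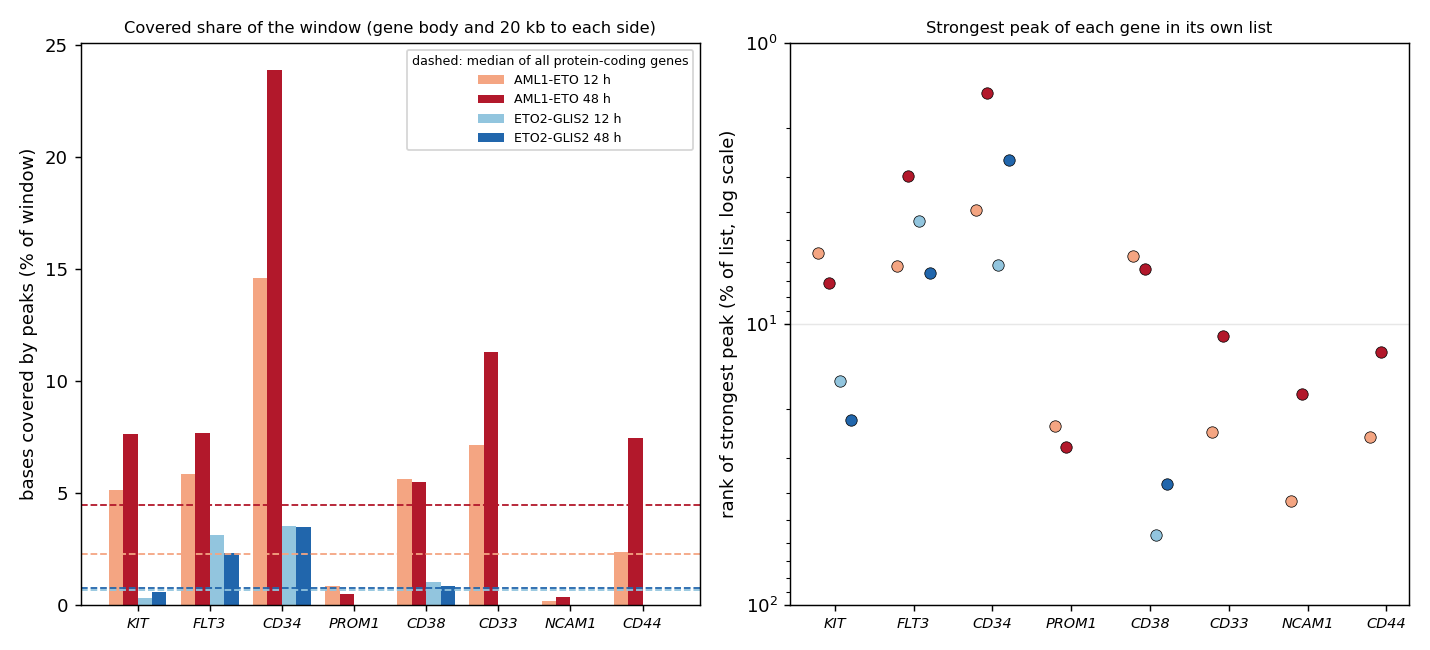
Left, share of each gene's window (body and 20 kb to each side) covered by peaks in the 4 lists, in percent, with dashed lines at the median of all protein-coding genes. Right, rank of each gene's strongest peak in its own list (percent of the list, log axis, strong at top). CD34 stands highest in both for AML1-ETO at 48 h, at 23.9% and 1.5%, with its strongest and widest peak downstream, inside MIR29B2CHG. The ETO2-GLIS2 bars and points of PROM1, CD33, NCAM1 and CD44 are at 0 or missing.

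Gene windows differ in length, so the covered share was also compared. AML1-ETO peaks at 48 h covered 23.9% of the CD34 window, 11.3% at CD33, 7.70% at FLT3, 7.64% at KIT, 7.46% at CD44 and 5.51% at CD38, each above the median of 4.45% over all protein-coding genes. They covered 0.5% at PROM1 and 0.345% at NCAM1, the 2 genes below it. At CD34, 86.9% of all genes were covered less, and at NCAM1 22.3%. The widest AML1-ETO peaks of the CD34 window at 48 h, of 5524 and 5182 bp, lay downstream of the gene, inside MIR29B2CHG. The CD34 share is thus one of the window, not of the gene alone. For ETO2-GLIS2 at 48 h the shares were 3.48% at CD34, 2.34% at FLT3, 0.828% at CD38 and 0.563% at KIT, against a median of 0.757%.

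By the rank of the strongest peak at 48 h, the order for AML1-ETO was CD34, FLT3, CD38, KIT, CD33, CD44, NCAM1 and PROM1. Among the genes with a peak, 14.5% had a stronger one than CD34, 26.4% a stronger one than FLT3 and 89.6% a stronger one than PROM1. The place of CD34 rests on the peak at the start site of MIR29B2CHG, downstream of CD34. Inside CD34 itself, the strongest AML1-ETO peak was at 9.37% of the list. The place of KIT rests on the peak 88.5 kb from its start, beyond the end of the gene. For ETO2-GLIS2 the order was CD34, FLT3, KIT and CD38, with 9.20, 20.7, 53.2 and 72.8% of genes having a stronger peak. With 1 library each, whether neighbours in these orders differ could not be tested.

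Most peaks of ETO2-GLIS2 overlapped one of AML1-ETO. At 48 h 14 of 14 shared at least 1 bp with a peak of AML1-ETO (100%, exact 95% Clopper-Pearson interval 76.8 to 100%), against 83.4% of the whole ETO2-GLIS2 list. At 12 h it was 12 of 13 (92.3%, 64.0 to 99.8%), against 74.5%. In the other direction 11 of 66 AML1-ETO peaks at 48 h overlapped ETO2-GLIS2 (16.7%, 8.62 to 27.9%), against 17.8% of the list, and 12 of 64 at 12 h (18.8%, 10.1 to 30.5%), against 26.2%. The whole-list shares of 83.4, 74.5 and 17.8% lay within these intervals, which cover counting error only, and so did 26.2%. Neighbouring peaks of 1 gene are not independent. The share of 16.7% was 1.52% where at least 50% of the AML1-ETO peak had to be covered, and 45.5% with the 28325 strongest peaks of each list.

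**Figure D3:**
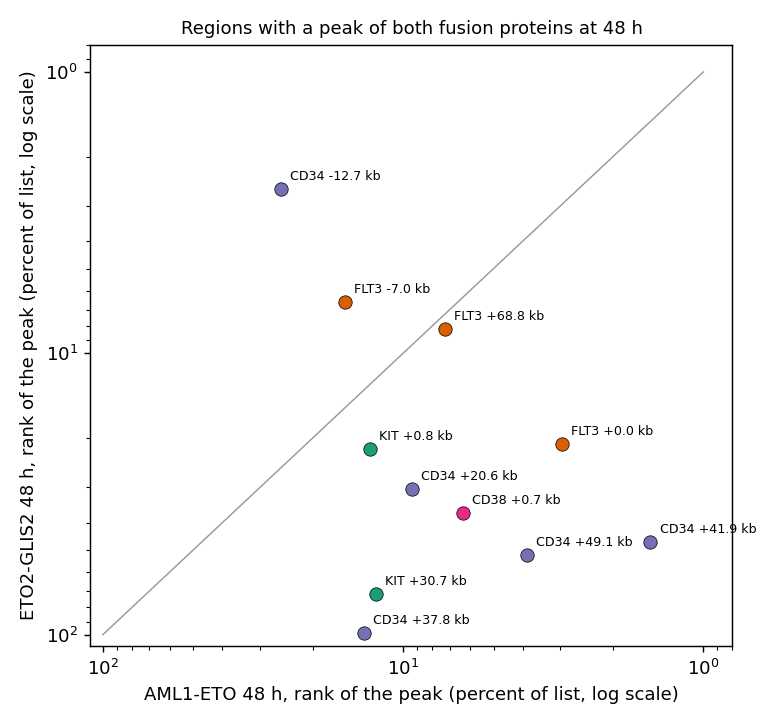
Each point is 1 of the 11 regions with a peak of both fusion proteins at 48 h, by the rank of its strongest peak in the AML1-ETO list (horizontal) and the ETO2-GLIS2 list (vertical), in percent of the list, on log axes with strong peaks at the top right. The line marks equal percent, and labels give the distance of the ETO2-GLIS2 summit from the start site. CD34 at -12.7 kb (25.6% and 2.61%) and FLT3 at -7.0 kb (15.6% and 6.57%) lie above the line, and the other 9 lie below it. Percent depends on list length (105769 and 30096 peaks). By rank itself, KIT at 0.8 kb (13612 and 6593) and FLT3 at 68.8 kb (7648 and 2464) also stand higher for ETO2-GLIS2. So does CD34 at 20.6 kb (9911 and 9164).

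Joined across lists, the peaks formed 83 regions. Of these, 9 had a peak in all 4 lists, at KIT, FLT3, CD34 and CD38. A further 2, at KIT and CD34, had peaks of AML1-ETO at both times and of ETO2-GLIS2 at 48 h, and 1, at CD38, had ETO2-GLIS2 at 12 h. AML1-ETO alone made up 23 regions at both times, 18 at 12 h only and 29 at 48 h only, and ETO2-GLIS2 alone made up 1, at FLT3. The 23 included all 8 genes.

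Of the AML1-ETO peaks at 48 h, 37 of 66 overlapped one of 12 h (56.1%, 43.3 to 68.3%), against 36.8% of the whole list. The list value lay below this interval. The interval covers counting error only, and neighbouring peaks of the same gene are not independent, so it cannot decide whether the shares differ. With at least 50% of the peak covered the share was 28.8%, and no whole-list share is given for that rule. Of the 12 h peaks, 46 of 64 overlapped one of 48 h (71.9%, 59.2 to 82.4%), against 73.9%. For ETO2-GLIS2, 11 of 14 peaks at 48 h had one at 12 h (78.6%, 49.2 to 95.3%), against 54.6%, and 9 of 13 the other way (69.2%, 38.6 to 90.9%), against 60.6%. The lists differ in length, and the part of sequencing depth in these shares was not tested, since the peak lists hold no read numbers and those the study gives for its libraries were not used here.

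Of 24 other surface markers used in leukaemia immunophenotyping, 21 had an AML1-ETO peak at each time, and 20 and 17 an ETO2-GLIS2 peak at 12 and 48 h. All 4 lists had a peak at 17 of them, and only ADGRG1 had the AML1-ETO-alone pattern at both times, against 4 of the 8 genes described here. HAVCR2, IL1RAP and CD200 had AML1-ETO at both times and ETO2-GLIS2 at 12 h alone, at 64.2, 90.1 and 97.0% of the list. At 48 h these too had AML1-ETO alone. The highest ranks at 48 h were those of ITGA4 (0.150%), ANPEP (0.283%) and CD47 (0.289%) for AML1-ETO, and of ENG (0.243%), ANPEP (1.55%) and TFRC (1.65%) for ETO2-GLIS2. THY1, CD109 and FOLR1 had no peak in any list.

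Among 24 ligands, related receptors and signalling partners of KIT and FLT3, 22 had an AML1-ETO peak at each time and 21 and 20 an ETO2-GLIS2 peak. PDGFRB was the only one with AML1-ETO alone at both times, and KITLG, the ligand of KIT, and KDR had no peak in any list. PTPN6 (0.307%), PIK3R1 (0.509%) and SH2B3 (1.04%) stood highest for AML1-ETO at 48 h, and SH2B3 (0.0698%), PIK3R1 (2.09%) and PTPN6 (3.63%) for ETO2-GLIS2. SH2B3 and PTPN6 encode an adaptor and a phosphatase that dampen receptor signals. Each of these 3 partners held a higher place in the 48 h list of AML1-ETO than KIT (7.11%) or FLT3 (2.96%) themselves. They were picked as the highest of the 24 by this same rank, so this does not describe the 24 as a set. Others of the 24 stood below both KIT and FLT3.

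The letters searched were also counted within 100 bp of each summit, at the 8 genes and over the whole lists at 48 h. A Runt match was found at 17 of 66 AML1-ETO peaks at 48 h (25.8%), against 25% of all AML1-ETO summits, and at 4 of 14 ETO2-GLIS2 peaks (28.6%), against 21.9%. An E-box was found at 7 of 66 (10.6%, list 13.8%) and 4 of 14 (28.6%, list 16.9%). Short letters such as GGAA occur in most windows, here in 59 of 66 (89.4%, list 83.1%) and 14 of 14 (100%, list 85.8%). The AP-1 letters were at 5 of 66 (7.58%, list 4.76%) and 0 of 14 (list 4.86%), and the GLIS core at 3 of 66 (4.55%, list 3.84%) and 1 of 14 (7.14%, list 7.93%). The ETO2-GLIS2 peak with the GLIS core was the one in CHCHD2P8 upstream of FLT3.

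Among the AML1-ETO peaks at 48 h, a Runt match was at 3 of the 11 that overlapped ETO2-GLIS2 (27.3%) and at 14 of the 55 that did not (25.5%). AP-1 letters were at 0 of the 11 and at 5 of the 55 (9.09%), too few to read a difference from. An E-box was at 2 of the 11 (18.2%) and at 5 of the 55 (9.09%). In the AML1-ETO list of 12 h, it was at 5 of 12 peaks that overlapped ETO2-GLIS2 (41.7%) and at 4 of 52 others (7.69%). Whether these E-box shares differ was not tested. No shares by overlap are given here for the whole list. These counts describe letters in windows, not bound sites, and several windows of 1 gene overlap or neighbour each other.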

How the data were processed

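Peaks of 4 anti-HA ChIP-seq libraries of U937 cells were analysed. The authors aligned reads to hg19 with Bowtie2 (2.2.9), used SAMtools (1.7) and called peaks with MACS2 (2.1.1.20160309), per the labels' processing notes. Caller settings are not given in the sources used here. The deposited lists hold, per peak, a score, the fold enrichment (a ratio), −log10 p-value and −log10 q-value columns, and the summit offset. Each list comes from 1 ChIP library, without pooling. The titles gave the groups: for the 12 h samples the treatment protocol names 48 h.

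Peaks of the autosomes and of X and Y were ranked by −log10 q within their list, with ties sharing the best rank. Genes, start sites of canonical transcripts and sequences came from GENCODE 44 lifted to GRCh37 and from that assembly (Python 3.11.15, pandas 2.3.3, scipy 1.17.1). Near a start site means within 1 kb of any annotated transcript of the gene. Intervals are exact Clopper-Pearson. Overlap and motif counting were tested on simulated data. The 8 genes, the 24-gene lists and the rules were chosen with earlier results of these data known. All 8 genes were described, their strongest and shared peaks singly and the rest by count and range, and of the other lists the 3 strongest genes per 48 h list and those without any peak. Sequences follow the rule of the strongest shared and the strongest unshared peak. The windows of CD38, CD44 and FLT3 and the first-intron window of KIT were added after their values had been seen. Alternatives were stricter q-values, equal list lengths, gene bodies only, other overlap rules and 1 start site per gene.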

Additional observations from a re-analysis of the deposited data

How the results depend on the processing

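Of 76 values recomputed under other settings, 53 stayed within 1.5 times the count or within the counting interval, and 23 moved. The numbers of genes with a peak, and with one at their start, did not move by that measure. At a −log10 q of at least 10, CD38 lost its ETO2-GLIS2 peaks at both times, NCAM1 its AML1-ETO peaks at 12 h and PROM1 its AML1-ETO peak at 48 h. With equal list lengths NCAM1 and PROM1 lost the same peaks, so neither kept AML1-ETO at both times. Counts of peaks at the 8 genes (AML1-ETO at 12 and 48 h, then ETO2-GLIS2) fell to 19, 21, 7 and 6 at a −log10 q of at least 10 and to 33, 41, 7 and 8 in gene bodies alone. AML1-ETO counts fell to 32 and 33 at a −log10 q of at least 5, and to 28 and 22 with the 28325 strongest peaks of each list.

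The share of AML1-ETO 48 h peaks with one at 12 h became 81.0% at a −log10 q of at least 10, 28.8% if at least 50% of the peak had to be covered, 86.4% with equal list lengths and 39.4% for summits within 200 bp. The share of AML1-ETO peaks overlapping ETO2-GLIS2 became 31.6% (−log10 q of at least 10), 6.25% (50% covered) and 35.7% (equal lengths) at 12 h, and 1.52% (50% covered) and 45.5% (equal lengths) at 48 h. The ETO2-GLIS2 48 h peaks with one at 12 h became 100% at a −log10 q of at least 10, and those overlapping AML1-ETO 71.4% for summits within 200 bp. Each stricter setting leaves fewer peaks or overlaps by its construction. No paired analysis was possible because each condition has 1 ChIP library and no test was run. The peak lists hold no read numbers, and the part of depth in the length of the lists was not tested.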
